A study of Mus musculus with 8 samples.

Results

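The regions described here had a reproducible ATAC-seq peak in cells sorted as male germ cells before retinoic acid (RA). They had no reproducible peak at 18 and 48 h after it, and had one again at 120 h. ATAC-seq uses a transposase that inserts sequencing adapters where chromatin is open, so reads pile up at promoters and enhancers that are free of packed nucleosomes. Peaks of all 8 libraries were merged where they overlapped by at least 1 bp, and a region was called at a time when both libraries of that time had a peak in it. Of 87144 merged regions, 61310 were called at 1 or more times, and 2314 were called at 0 and 120 h and at neither 18 nor 48 h. These regions are named lost then regained below. They were chosen by their peak calls at all 4 times, so the pattern of their calls and their heights beside those of other classes are a description with no test. The heights at 0 and 120 h were compared with each other only. A time without a call means that at least 1 library lay below the limit of the peak caller and not that the chromatin was closed.

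All 8 libraries came from the testes of mice carrying a PIWIL2-eGFP transgene, in which the Piwil2 promoter marks germ cells, and the cells were sorted for eGFP. All mice received the RA synthesis inhibitor WIN 18,446 for 7 days from 2 days post partum, at 100 mg/kg, which holds spermatogonia in the undifferentiated state. The 0 h group received no RA, whereas the 18, 48 and 120 h groups received 200 µg RA at 9 days post partum and were collected after that interval. Each time had 2 libraries of 1 mouse each. The labels give C57BL/6 x 129s4/SvJae as the background and 100000 cells per library, whereas the methods give C57BL/6 x SJL and 50000 cells. The groups therefore also differed in age, and RA and age cannot be told apart.

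RA drives undifferentiated spermatogonia into differentiation. It binds nuclear receptors of the RAR and RXR families, which sit at paired AGGTCA repeats and exchange corepressors for coactivators. The cells then divide through the A1 to A4, intermediate and B stages and enter meiosis. The study assigned 0 h to undifferentiated A spermatogonia, 18 h to A1 and A2, 48 h to A3 and 120 h to B spermatogonia.

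The sequences under the highest 120 h summit are shown for members with the highest peaks, for members with high peaks and no peak at all at 18 and 48 h, and for high members at gene starts. Members were ranked by their lowest summit value in the 4 libraries of 0 and 120 h. The Cbfa2t3 and Dmrtb1 regions were added after their values were seen, since the first had the largest rise and the second lies at the start of a DMRT gene. All are 300 bases of the plus strand of GRCm38 (mm10). Capitals mark matches on either strand to the 20 short motifs searched, which are spelled out with the motif results.
Crlf2 downstream region, chr5:109551051-109551350: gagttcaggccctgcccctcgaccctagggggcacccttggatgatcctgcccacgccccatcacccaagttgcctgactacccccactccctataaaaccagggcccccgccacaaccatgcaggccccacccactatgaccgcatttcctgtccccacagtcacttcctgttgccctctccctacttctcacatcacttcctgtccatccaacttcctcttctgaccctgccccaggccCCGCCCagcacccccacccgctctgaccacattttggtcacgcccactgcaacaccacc
Cyhr1 region, chr15:76656875-76657174: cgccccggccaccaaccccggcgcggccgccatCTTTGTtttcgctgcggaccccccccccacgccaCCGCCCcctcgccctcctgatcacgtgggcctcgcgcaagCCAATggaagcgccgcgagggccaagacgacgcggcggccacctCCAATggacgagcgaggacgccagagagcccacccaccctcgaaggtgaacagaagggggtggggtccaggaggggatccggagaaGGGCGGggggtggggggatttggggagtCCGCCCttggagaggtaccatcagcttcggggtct
Tmem259 start, chr10:79984235-79984534: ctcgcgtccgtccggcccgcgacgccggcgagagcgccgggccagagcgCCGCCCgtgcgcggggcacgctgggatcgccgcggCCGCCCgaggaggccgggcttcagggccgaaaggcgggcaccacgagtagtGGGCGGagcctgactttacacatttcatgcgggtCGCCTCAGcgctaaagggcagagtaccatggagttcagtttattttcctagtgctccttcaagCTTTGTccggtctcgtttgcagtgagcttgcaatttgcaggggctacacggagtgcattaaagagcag
Klf7 intron, chr1:64119339-64119638: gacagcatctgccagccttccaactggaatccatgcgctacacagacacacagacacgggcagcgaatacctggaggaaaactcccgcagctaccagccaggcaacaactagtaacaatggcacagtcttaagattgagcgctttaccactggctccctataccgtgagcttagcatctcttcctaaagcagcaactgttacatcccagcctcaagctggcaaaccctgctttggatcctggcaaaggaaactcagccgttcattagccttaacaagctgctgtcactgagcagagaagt
Adam11 intron, chr11:102774603-102774902: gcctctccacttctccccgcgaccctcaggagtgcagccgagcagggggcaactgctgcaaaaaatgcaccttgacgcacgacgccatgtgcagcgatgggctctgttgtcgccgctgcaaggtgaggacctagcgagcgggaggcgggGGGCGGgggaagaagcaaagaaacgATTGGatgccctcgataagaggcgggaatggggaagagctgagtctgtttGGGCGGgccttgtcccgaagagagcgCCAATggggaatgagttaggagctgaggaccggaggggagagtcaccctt
Ccnd1 start, chr7:144939531-144939830: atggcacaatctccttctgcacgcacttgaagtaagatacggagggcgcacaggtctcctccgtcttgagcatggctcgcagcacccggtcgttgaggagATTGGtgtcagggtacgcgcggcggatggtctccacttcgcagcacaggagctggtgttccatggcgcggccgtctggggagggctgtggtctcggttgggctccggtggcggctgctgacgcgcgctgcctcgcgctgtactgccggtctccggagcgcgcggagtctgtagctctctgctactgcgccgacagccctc
Epb4.1l4b start, chr4:57143563-57143862: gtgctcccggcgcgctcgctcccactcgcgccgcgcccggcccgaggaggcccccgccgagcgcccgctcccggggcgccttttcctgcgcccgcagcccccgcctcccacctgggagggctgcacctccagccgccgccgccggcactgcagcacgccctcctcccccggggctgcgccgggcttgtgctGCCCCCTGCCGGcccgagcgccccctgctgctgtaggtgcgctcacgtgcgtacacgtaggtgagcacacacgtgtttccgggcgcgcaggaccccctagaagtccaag
Cbfa2t3 intron, chr8:122687819-122688118: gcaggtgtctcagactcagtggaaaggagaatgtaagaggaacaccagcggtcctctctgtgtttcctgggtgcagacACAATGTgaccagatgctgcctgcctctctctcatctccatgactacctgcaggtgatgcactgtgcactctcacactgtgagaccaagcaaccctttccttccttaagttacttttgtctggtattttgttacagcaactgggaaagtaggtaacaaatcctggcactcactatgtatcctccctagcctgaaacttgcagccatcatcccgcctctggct
Dmrtb1 start, chr4:107684107-107684406: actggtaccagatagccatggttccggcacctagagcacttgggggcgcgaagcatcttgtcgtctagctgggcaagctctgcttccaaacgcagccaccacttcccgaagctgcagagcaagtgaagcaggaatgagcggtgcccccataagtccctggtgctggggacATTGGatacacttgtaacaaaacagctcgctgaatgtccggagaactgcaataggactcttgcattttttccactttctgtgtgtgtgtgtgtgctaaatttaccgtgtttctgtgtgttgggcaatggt

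The Cyhr1 window held 3 GC boxes (GGGCGG or its complement) and 2 CCAAT boxes, and 70.7% of its bases were G or C. The window at the start of Tmem259 held 3 GC boxes and 1 match to CNCCTCAG, a sequence bound by the meiotic regulator STRA8. The Epb4.1l4b window held a CTCF match, and the Cbfa2t3 window held a match to ACATTGT, the core of the site bound by DMRT proteins. The Klf7 window held none of the 20 motifs.

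The lost then regained regions were peaks of middle height at 0 h. Their median summit values, the tag coverage at the top of a peak after the authors had reduced all libraries to equal tags, were 83 and 88 in the 0 h libraries and 69 and 51 in the 120 h libraries. Regions called at 0 h only had medians of 60 and 62 at 0 h, and regions called at all 4 times had 224 and 270. Where a lost then regained region had a peak in a single library at 18 or 48 h, the medians in replicates 1 and 2 were 44 and 50 for 18 h, and 47 and 48.5 for 48 h. The lowest summit value of any peak was 24 or 25 in every library. Members therefore ranked near the middle of the 0 h peaks, with median percentiles of 55.1 and 52.8, and lower among the 120 h peaks, with 43.8 and 29.8.

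**Figure D1:**
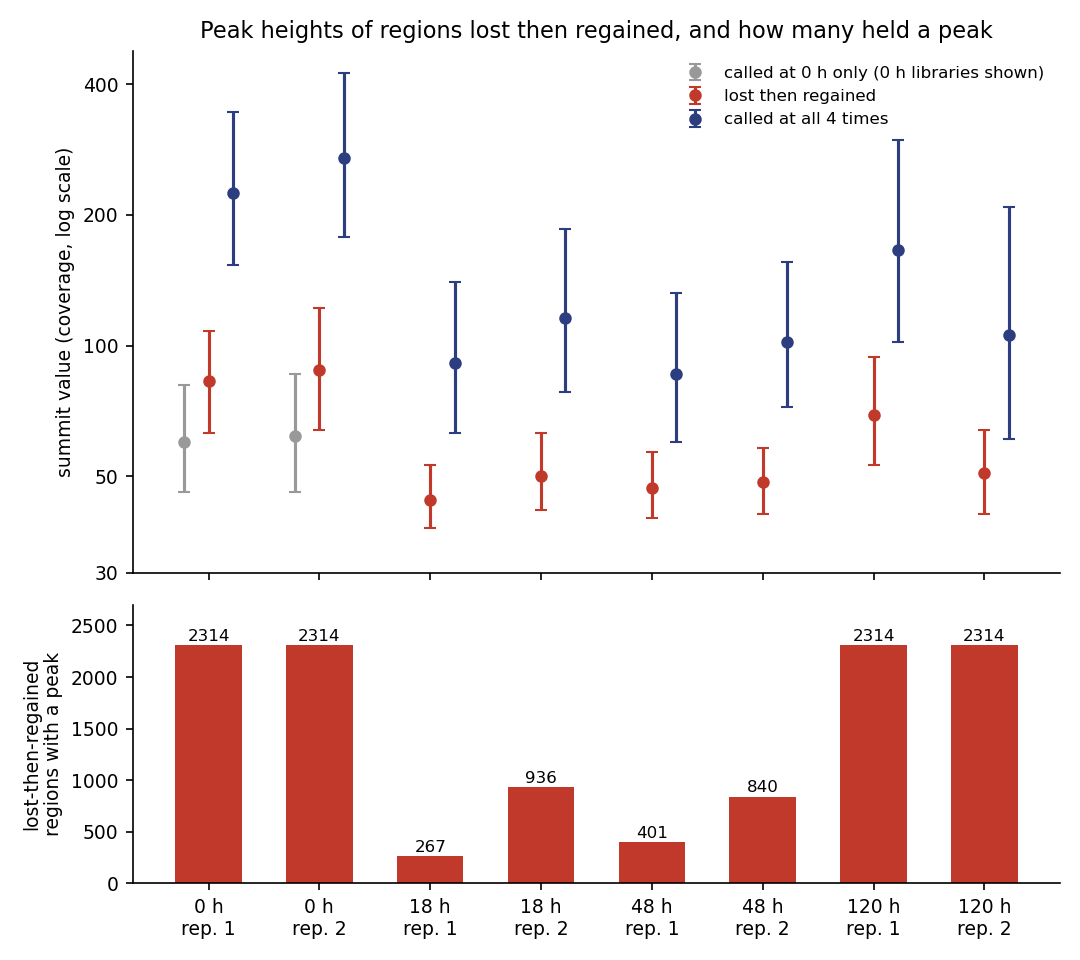
The upper plot gives the median summit value (points) and the quartiles (bars) on a log axis in each library for regions lost then regained, called at all 4 times and, in the 0 h libraries, called at 0 h only; the lower plot counts the lost then regained regions with a peak. Members sat between both other classes at 0 h (83 and 88), and from 267 to 936 of the 2314 had a peak in a library of 18 or 48 h.

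Part of the members had no peak at all between 0 and 120 h. No peak was present in any of the 4 libraries of 18 and 48 h in 696 members (30.1%), 792 had a peak in 1 of these libraries, and 826 had 1 peak at each time. A peak was present in 267 members in 18 h replicate 1, 936 in 18 h replicate 2, 401 in 48 h replicate 1 and 840 in 48 h replicate 2. The libraries with fewer peaks in total, 28889 at 18 h and 25941 at 48 h, were those with fewer member peaks, beside 34423 and 33982 in their replicates. The 0 h libraries held 72215 and 69089 peaks and the 120 h libraries 39551 and 24643. The part of these totals in the loss and regain was not tested. When the 24643 highest peaks of each library were used, 526 regions followed the pattern, and 366 of the 2314 members overlapped one of them.

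The values on either side of the rule were close. The 826 members with a peak in 1 library at each of 18 and 48 h had medians of 93 and 104 at 0 h and then 69 and 51 at 120 h. In the 2435 regions called at 0 and 120 h and at either 18 or 48 h, the medians were 107 and 121 and then 77 and 53. The members with no peak at 18 and 48 h were lower at 0 h, with 73 and 72, and had 70.5 and 51 at 120 h.

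Membership followed the height at 0 h. Members made up 2.15% of regions called at 0 h with a height under 50, 7.18% of those from 75 to under 100 and 0.0498% of those from 300, where height is the geometric mean of the 0 h summit values. Among regions from 150 to under 200, the share was 8.60% where another region called at all 4 times lay within 5000 bp and 2.04% where none did. Of the members, 305 (13.2%) had such a neighbour, beside 7.46% of all regions called at 0 h. Peaks near a tall neighbour were called from a higher level: the 1st percentile of summit values lay between 36.2 and 49 in the 8 libraries with a neighbour of at least 200 within 5000 bp, and between 30 and 31 without a neighbour. The part of this higher limit in the loss of a call was not tested. Without the members that had such a neighbour, 2009 remained.

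**Figure D2:**
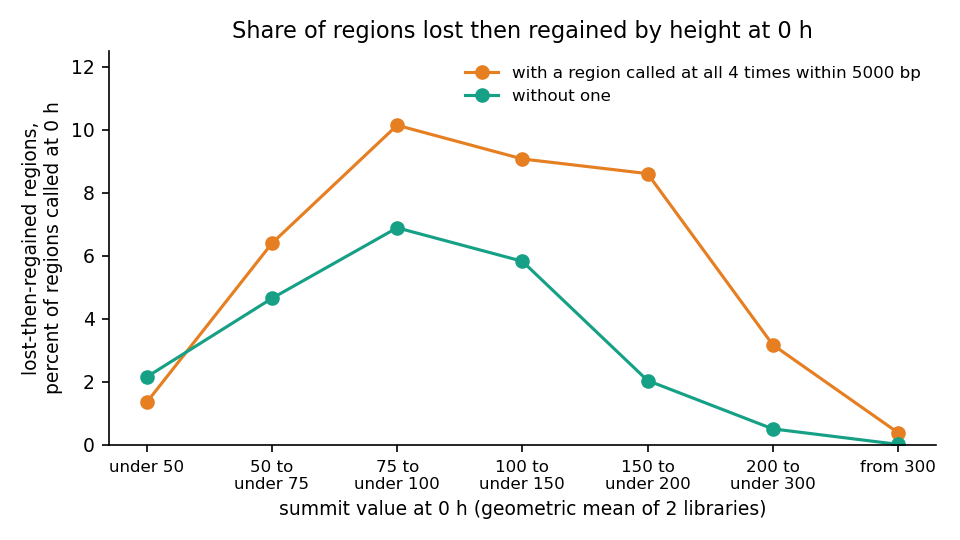
The share of regions called at 0 h that were lost then regained (percent, vertical axis) is drawn for classes of the 0 h summit value, with and without a region called at all 4 times within 5000 bp. The share was highest from 75 to under 100 in both lines, and from 150 to under 200 it was 8.60% with such a neighbour and 2.04% without.

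Of the 8 highest members, 7 lay within 1000 bp of an annotated transcript start. A region downstream of Crlf2, a cytokine receptor subunit (chr5:109550999-109551417), had summit values of 371 and 612 at 0 h, no peak in 18 h replicate 1, 229 in 18 h replicate 2, no peak at 48 h, and 290 and 300 at 120 h. The region in Cyhr1 (chr15:76656849-76657223), on a CpG island, had 217 and 307 at 0 h and 284 and 218 at 120 h, with no peak at 18 and 48 h. Its 0 and 120 h values overlapped.

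The start of Rpl36, a ribosomal protein gene (chr17:56613207-56613628), had 188 and 236 at 0 h, 126 in 18 h replicate 2, 105 in 48 h replicate 1, and 320 and 217 at 120 h. The start of Brd2, a chromatin reader with bromodomains (chr17:34122360-34122770), had 195 and 325 at 0 h, 173 in 18 h replicate 2, 141 in 48 h replicate 1, and 232 and 180 at 120 h. The replicate without a peak was replicate 1 at 18 h and replicate 2 at 48 h in both. The other 4 were at the starts of Tmem259, Six5, Ctdsp1 and Brox, with values from 173 to 308 at 0 h and from 164 to 275 at 120 h. Of these 8 regions, 6 had a region called at all 4 times within 5000 bp, the nearest being 596 bp from the Tmem259 region. Six5 and Brox had none.

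Members with no peak at 18 and 48 h in any library were high at Klf7, a Krüppel-like transcription factor gene (chr1:64119313-64119657, intron), with 135 and 148 at 0 h and 193 and 138 at 120 h. An intron of Adam11, a membrane protein gene (chr11:102773818-102774984), had 135 and 154 and then 171 and 131. An intron of Msi2, an RNA-binding protein gene with a role in spermatogonia, had 238 and 171 at 0 h and 228 and 119 at 120 h, and the region in Stx5a had 135 and 199 and then 161 and 119. Klf7, Msi2 and Stx5a had a region called at all 4 times within 5000 bp, and Adam11 did not.

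Among the other gene starts, the highest were at Ccnd1, Epb4.1l4b, Atp5d, Gm20324 and A230083G16Rik, all on CpG islands. The start of Ccnd1, the cyclin D1 gene that drives entry into S phase (chr7:144939539-144940003), had 157 and 177 at 0 h, 103 in 18 h replicate 2, 90 in 48 h replicate 2, and 191 and 143 at 120 h. The Epb4.1l4b start had 170 and 239 at 0 h, 85 in 18 h replicate 2, 69 in 48 h replicate 2, and 178 and 140 at 120 h.

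**Figure D3:**
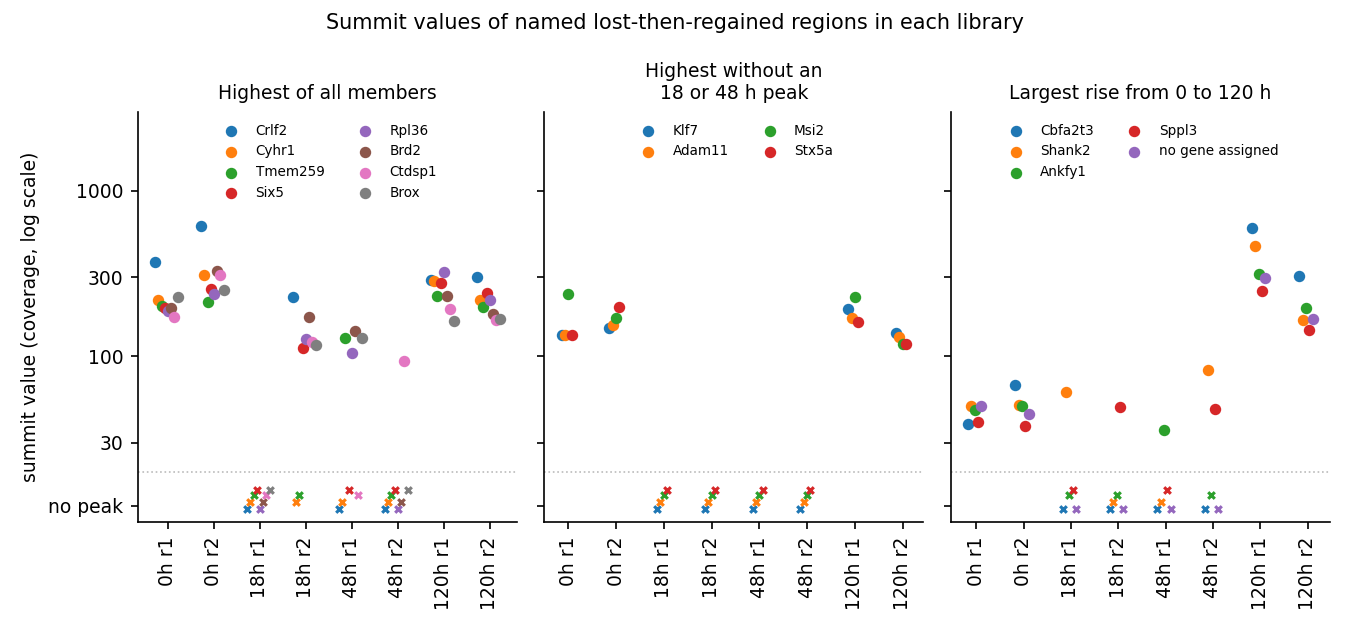
Summit values (log axis) in each of the 8 libraries (r1 and r2 are replicates 1 and 2) of the 8 highest members, of 4 of the 5 highest further members without a peak at 18 and 48 h, and of the 5 members with the largest rise from 0 to 120 h. Crosses below the dotted line stand for a library without a peak and carry no value. The Crlf2 region was highest at 0 h (371 and 612) and the Cbfa2t3 region at 120 h (591 and 306).

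The regained peak lay close to the first. Peaks were joined into a region by their overlap, so this closeness is largely set by the merging. The median distance between the highest summits of the 0 and 120 h libraries of a member was 48 bp, and 1727 (74.6%) lay within 100 bp. Replicates of the same time differed by a median of 32 bp, at both 0 and 120 h. In regions called at all 4 times the distance between 0 and 120 h was 32 bp, and 88.8% lay within 100 bp. The highest peaks overlapped in all 4 pairs of a 0 h with a 120 h library in 2191 members (94.7%), beside 99.1% of the regions called at all 4 times.

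The height of the regained peaks was compared with that at 0 h in the 20285 regions called at both times, with limma on the log2 summit values (n = 2 against 2 libraries). A call at both times was required of all these regions, and the rule compared no heights between those times, although absence of a call at 18 and 48 h went with low peaks. Of the members, 454 had a lower and 63 a higher peak at 120 h (adjusted p below 0.05), and their median was -0.54 on the log2 scale. Over all 20285 regions the background was 35.9% lower and 1.02% higher, 36.9% in all, with a median of -0.73. Scaling decided the direction. When each library was centred on its median over these regions, the median of all regions moved to 0.21 and that of the members to 0.40. The members called were then 32 lower and 682 higher, beside a background of 9.93% lower and 20% higher, 29.9% in all. Of the highest regions named above, Gm20324 was lower as deposited (log2 change -0.99, limma, adjusted p = 0.047) and no other was called. After centring Cyhr1, Tmem259, Six5, Rpl36, Klf7, Adam11 and Ccnd1 were higher. Without 0 h replicate 2 and without centring, 23 members were lower and 11 higher, and without 120 h replicate 1 there were 941 and 35.

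The members' smaller fall went with their lower height at 0 h. The change was measured from that height and a peak at 120 h was required. Regions low at 0 h could therefore not fall far, and part of this relation is built in. Between 75 and under 100 at 0 h, the median log2 change was -0.61 in 635 members and -0.58 in the 1142 other regions. Between 150 and under 200, it was -1.01 in 147 members and -0.98 in 3108 other regions. Below 50 it was 0.22 in 212 members and 0.52 in 81 others.

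**Figure D4:**
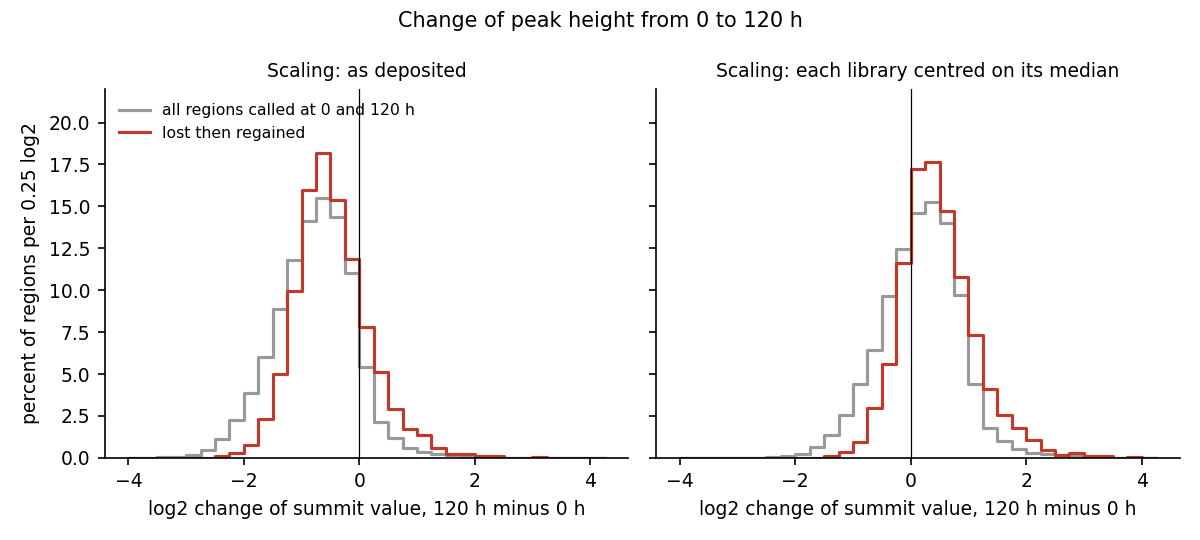
Percent of regions per 0.25 of log2 change in summit value from 0 to 120 h, for lost then regained regions and for all 20285 regions called at both times, as deposited (left) and with each library centred on its median (right). The medians of the members and of all regions were -0.54 and -0.73 as deposited and 0.40 and 0.21 after centring.

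The difference in place between the 63 members higher at 120 h and the 454 lower ones was not tested. The heights of the 63, with medians of 51 and 45 at 0 h and then 167 and 99, restate how they were selected. Of the 63, 3 lay at a gene start and 1 on a CpG island, beside 126 and 136 of the 454. Over all 20285 regions, 9 and 4 of the 206 higher ones did, beside 2645 and 2615 of the 7277 lower ones. All 63 were also called higher after centring. The largest rise was in an intron of Cbfa2t3, a transcriptional corepressor gene (chr8:122687693-122688265), with 39 and 67 at 0 h, no peak at 18 and 48 h, and 591 and 306 in the 120 h libraries. The log2 change was 3.06 ± 0.42 (SE, limma, adjusted p = 2.6e-10).

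Introns of Shank2, a synaptic scaffold gene, Ankfy1, an endosome trafficking gene, and Sppl3, a membrane protease gene, rose by log2 changes of 2.45, 2.35 and 2.27 (SE 0.42 each). Shank2 had 50 and 51 at 0 h and 460 and 165 at 120 h. Between them it had 61 in 18 h replicate 1 and 82 in 48 h replicate 2. Ankfy1 had 47 and 50, 36 in 48 h replicate 1, and then 315 and 194. Sppl3 had 40 and 38, 49 in 18 h replicate 2, 48 in 48 h replicate 2, and then 247 and 144. In Shank2 and Sppl3 these 18 and 48 h peaks were higher than both 0 h peaks. The 120 h values lay above the 0 h values in all 3. A region with no assigned gene (chr12:112341665-112342699) rose from 50 and 45 to 296 and 168, a log2 change of 2.23. In each of these, 120 h replicate 1 was the higher of the replicates.

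The largest falls were away from gene starts. A region with no assigned gene (chr8:107964002-107964718) had 163 and 160 at 0 h and 36 and 29 at 120 h, a log2 change of -2.32 ± 0.42 (SE, limma, adjusted p = 1.6e-06), and -1.38 after centring. Regions with no assigned gene on chr14:72155299-72155890 and chr3:52255432-52256432 changed by -2.29 and -2.24. An intron of Ntrk2, a neurotrophin receptor gene, had 96 and 282 at 0 h and 47 and 30 at 120 h. A region in Ppef2, a phosphatase gene, had 158 and 265 and then 58 and 38. In replicate 2 of 18 and 48 h, Ntrk2 had 60 and 63 and Ppef2 had 50 and 67. Both Ntrk2 values and the 48 h value of Ppef2 were above the 120 h values of the same region. All 5 regions were lower at 120 h than at 0 h in both replicates, with 120 h values from 29 to 66. They were also lower after centring, although those on chromosomes 14, 3 and 13 and that in Ppef2 were not called in 2 to 5 of the other settings.

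Members were spread between promoters and distal sequence. By the deposited distances, 650 (28.1%, 95% Wilson interval 26.3 to 29.96) lay within 1000 bp of a gene start, beside 9.99% of regions called at 0 h only and 57.7% of regions called at all 4 times. A CpG island was present in 746 (32.2%, 30.4 to 34.2), beside 8.24% and 58.6%. CpG islands away from gene starts held 256 members (11.1%, 9.85 to 12.4), a larger share than in regions called at 0 h only (4.01%) and at all 4 times (7.39%). These intervals cover counting error only. At gene starts and on CpG islands the members' share lay between those of the other classes, as their height did. In the 696 members with no peak at 18 and 48 h, 19.7% lay at a gene start and 23.9% on a CpG island. In the GENCODE annotation, the 0 h summit of 796 members (34.4%) lay within 1000 bp of a transcript start, 170 (7.35%) in another exon, 661 (28.6%) in an intron and 687 (29.7%) between genes. The median width of a member was 559 bp. The members were found on every chromosome, from 2 on Y and 40 on X to 208 on chromosome 11, and on chromosome 15 they were 15.6% of the regions called at 0 and 120 h, beside 11.4% over all chromosomes.

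Sequence was compared in windows of 300 bases around the highest 0 h summit. The median GC content was 54.3% in members, 51.0% in regions called at 0 h only and 61.0% in regions called at all 4 times, with 3, 2 and 6.33 CpG per 100 bases. The GC box occurred in 32.8% of members, beside 18.1% and 53.6% of these classes and 29.2% of all regions called at 0 h. The CCAAT box was found in 25.2% of members, beside 33.4%, 38.8% and 34.7%. It was the lowest of the 4 shares in members, at a GC content between those of the other classes.

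The DMRT core ACATTGT occurred in 306 members (13.2%, 11.9 to 14.7), beside 9.79% of regions called at 0 h only, 1554 of the 15536 called at all 4 times and 11.1% of all called at 0 h. DMRT proteins are transcription factors that hold back or promote the step from mitosis to meiosis in spermatogonia. Away from gene starts the share was 17.7% (15.9 to 19.6) in members, 10.6% (10.2 to 10.9) at 0 h only and 22.1% (21.1 to 23.1) at all 4 times. In windows of 45 to under 50% GC it was 28.1% (24.1 to 32.4), 11.9% and 35.3%. The 306 members with the core had median summit values of 77 and 74.5 at 0 h and 82 and 48 at 120 h, with a median log2 change of -0.25. The 2008 without it had 84 and 91, then 68 and 51, and a median log2 change of -0.57. Among the 306, 12 lay at a gene start and 7 on a CpG island, beside 638 and 739 of the 2008. The part of place and 0 h height in this difference was not tested. As deposited, 15 of the 306 and 48 of the 2008 were higher at 120 h, beside 1.02% of all regions tested, and after centring 148 and 534 were, beside 20%.

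The CTCF core motif, of the factor that anchors chromatin loops, occurred in 206 members (8.90%, 7.81 to 10.1), beside 6.35% of regions called at 0 h only, 6.61% at all 4 times and 6.42% of all called at 0 h. The order changed with GC content. Under 45% GC the share was 0.915% in members and 3.10% in regions called at 0 h only, and from 45 to under 50% GC it was 4.98% and 7.69%. From 50 to under 55% GC it was 12.47% and 7.22%, from 55 to under 60% it was 14.6% and 6.64%, and from 60% it was 10.2% and 6.501%. Of the 682 members higher after centring 34 held the CTCF motif, and of the 63 higher as deposited 1 did. A CpG island was present in 128 of the 682 and in 1 of the 63, beside 32.2% of all members. The part of place and GC content in these motif counts was not tested. The ETS motif CCGGAAG occurred in 3.76% of members, beside 4.61% and 14.2%, and 7.23% of all called at 0 h.

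Full RA response elements were rare in every class. Direct repeats of AGGTCA with a spacer of 5 or of 2 bases were present in 0 of the 2314 windows. They were found in 10 and 9 of the 59063 windows of regions called at 0 h. The single repeat AGGTCA occurred in 13.7% of members, beside 16.1% of regions called at 0 h only and 14.9% of all called at 0 h. The nuclear receptor site TCAAGGTCA, which contains AGGTCA, occurred in 0.389% of members, beside 0.516% of all called at 0 h. CNCCTCAG occurred in 7.30% of members, beside 8.08%. The other motifs searched were the octamer ATGCAAAT, the SOX core ACAAAG, the core ATCAAAG of the TCF and LEF factors of the Wnt pathway, and the cyclic AMP response element TGACGTCA. The AP-1 site TGANTCA, the E-box CAGCTG, the GATA site AGATAAG, the forkhead core TGTTTAC, the NRF1 motif and the RFX motif were searched as well, on both strands. In members the shares of these motifs ranged from 0.216% for RFX to 23.2% for SOX, and in all regions called at 0 h from 0.279% for RFX to 24.99% for SOX. These exact letters do not include sites with a mismatch.

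**Figure D5:**
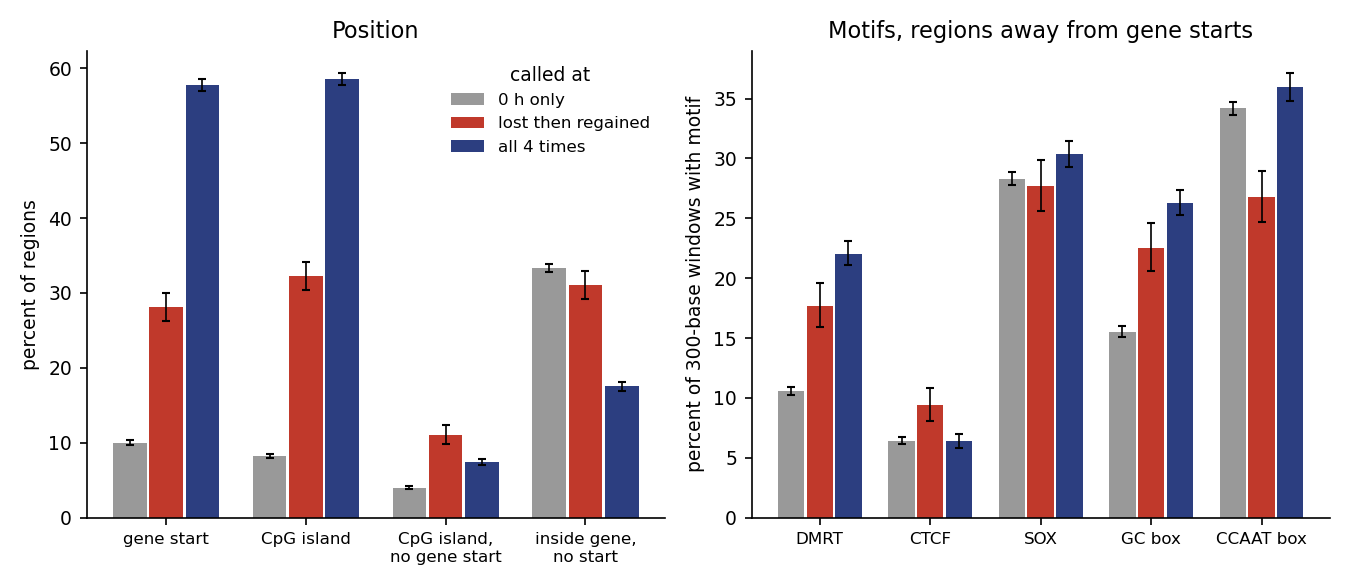
Left, the percent of regions at a gene start, on a CpG island, on a CpG island away from a gene start and inside a gene away from its start; right, the percent of 300-base windows with a motif among regions over 1000 bp from a gene start. Bars are regions called at 0 h only, lost then regained and called at all 4 times, with 95% Wilson intervals. Away from gene starts the DMRT core was found in 10.6%, 17.7% and 22.1% of these classes and the CTCF motif in 6.44%, 9.38% and 6.37%.

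The authors' table assigned genes to 1823 members. These 2393 genes were 11.6% of the 20547 genes with a region called at 0 h. Of them, 1507 (63.0%) also had a region called at all 4 times, beside 70.1% of all genes with a region called at 0 h. When all peaks of a gene were counted together, 408 of the 2393 genes were called at 0 and 120 h and at neither 18 nor 48 h. This count was not compared with that of other genes. A single member was assigned to 2175 genes, 2 to 193, 3 to 23 and 4 to 2, and 514 members (22.2%) had another within 50000 bp. The genes with 4 were Camta1, a calcium-dependent transcription activator, and Zic4, a zinc finger gene beside Zic1.

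The Zic1 and Zic4 regions lay together on chromosome 9. The start of Zic1 had 87 and 170 at 0 h and 76 and 58 at 120 h, and a second region inside the gene 92 and 97 and then 87 and 48, neither with a peak at 18 and 48 h. The 2 other Zic regions had 96 and 135, and 110 and 88, at 0 h, and 44 to 65 at 120 h. Where a library of 18 or 48 h had a peak in them, its value was 45 to 49. All 4 were on CpG islands. The 4 Camta1 regions were introns without a CpG island, with 55 to 204 at 0 h and 43 to 91 at 120 h. Their peaks in single libraries of 18 or 48 h had values of 35 to 54. Of these regions, 1 (chr4:151213234-151214093) fell by 1.52 on the log2 scale (limma, adjusted p = 0.0019), but by 0.58 after centring (adjusted p = 0.092). C230035I16Rik, Ap1g2 and Dlgap1 had 3 members each.

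Of the gene lists, the Hox clusters and the progenitor genes held the largest shares of members. The Hox genes, which set position along the body axis and lie in clusters rich in CpG islands, had 72 regions called at 0 h, of which 10 (13.9%) were members, beside 4.43% of all regions with an assigned gene. These were assigned to 18 of the 39 Hox genes, and 1 region is often assigned to several. The region in Hoxc5 had 96 and 89 at 0 h and 100 and 66 at 120 h, and one of the Hoxd11 regions had 65 and 72 and then 63 and 61, with no peak at 18 and 48 h in either. The region in Hoxb8 had 131 and 199, 72 in 48 h replicate 2, and then 145 and 57. The start of Hoxb4 had 111 and 120, 43 in 18 h replicate 2, 45 in 48 h replicate 2, and then 94 and 45. No peak at 18 and 48 h was present in 5 of the 10, and 9 lay at a transcript start. None passed the limma threshold as deposited in either direction, and 6 were higher after centring, beside 20% of all regions tested. The median log2 changes were -0.20 and 0.74.

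Progenitor spermatogonia genes had 4 members among 29 regions (13.8%). The region upstream of Lin28a, an RNA-binding protein of undifferentiated cells (chr4:134019345-134019980), had 84 and 93 at 0 h, no peak at 18 and 48 h, and 65 and 49 at 120 h. A region 10136 bp upstream of Nanos3, a germ cell RNA-binding protein, had 127 and 120 and then 83 and 64, with no peak between. The start of Foxc2, a transcription factor of stem spermatogonia, had 115 and 82 and then 94 and 61, with 75 and 55 in 1 library each of 18 and 48 h. The region near Ddit4, an inhibitor of mTOR signalling, had 62 and 80, 43 in 18 h replicate 2, and then 44 and 46. None of the 4 passed the threshold in either scaling.

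Stem cell genes had 6 members among 86 regions (6.98%). The start of Bmi1, a Polycomb protein gene (chr2:18676472-18677470), had 122 and 179 at 0 h, 88 in 18 h replicate 2, 53 in 48 h replicate 2, and 160 and 146 at 120 h. The region 606 bp upstream of Gfra1, the receptor for the niche factor GDNF, had 110 and 72 at 0 h and 48 and 36 at 120 h. It also had 52 in 18 h replicate 2 and 44 in 48 h replicate 1, near its 120 h values. The log2 change from 0 to 120 h was -1.10 ± 0.42 (SE, limma, adjusted p = 0.027), and -0.16 after centring (adjusted p = 0.71). A second Gfra1 region had 88 and 98, 52 in 18 h replicate 1, 69 in 48 h replicate 2, and then 97 and 34. The region in Pax7 had 52 and 40, 48 in 48 h replicate 2, and then 83 and 82. Both 120 h values were above both 0 h values (log2 change 0.86, limma, adjusted p = 0.090). After centring the Pax7 and Bmi1 regions were called higher, with log2 changes of 1.80 and 0.99 (limma, adjusted p = 0.00031 and 0.013). A region at the start of Atp9a, which the table also assigned to Sall4, 25761 bp away, had 139 and 162 and then 95 and 96, with no peak at 18 and 48 h. The start of Eomes had 108 and 102, 47 in 18 h replicate 2, 47 in 48 h replicate 1, and then 73 and 54.

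Among RA receptors and partners, 5 of 62 regions (8.06%) were members. The region 273 bp upstream of Rxra, the partner of the RA receptors (chr2:27676084-27677132), had 119 and 107 at 0 h, no peak at 18 and 48 h, and 89 and 70 at 120 h. The start of Ncoa2, a coactivator gene, had 115 and 139, 93 in 18 h replicate 2, and 113 and 87. The other 3 were at Rxrg, a further RXR gene, and at Ncor1 and Nrip1, both corepressor genes. Those at Rxrg and Nrip1 were lower at 120 h, by 1.16 and 1.69 on the log2 scale, and neither was called after centring. Rxrg had 57 in 18 h replicate 2, beside 59 and 36 at 120 h. Nrip1 had 39 in 18 h replicate 1 and 52 in 48 h replicate 2, beside 46 and 31 at 120 h. None of the regions at the RAR genes themselves was a member.

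Of the 34 regions of retinoid metabolism genes, 3 (8.82%) were members, beside 1823 of the 41194 regions with an assigned gene. All 3 were at genes of the CYP26 enzymes, which break down RA, and 2 of them lay at the neighbouring Cyp26a1 and Cyp26c1. The start of Cyp26a1 (chr19:37697646-37698193) had 95 and 116 at 0 h, 57 in 48 h replicate 2, and 56 and 45 at 120 h. A region 4624 bp upstream, in an exon 7344 bp from the start of the neighbouring Cyp26c1, had 122 and 150, 54 and 55 in 1 library each of 18 and 48 h, and 70 and 51. Both were lower at 120 h (limma, adjusted p = 0.033 and 0.017), and neither was called after centring. The region in Cyp26b1 had 91 and 113 and then 103 and 74, and was called higher only after centring (limma, adjusted p = 0.040).

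Of the 40 regions at regulators of differentiating spermatogonia, 1 (2.50%) was a member, beside the background of 4.43%, at the start of Dmrtb1, a DMRT gene that coordinates the exit from spermatogonial divisions. It had 93 and 78 at 0 h, 55 in 48 h replicate 2 and 96 and 92 at 120 h (chr4:107682933-107684409), and was called higher only after centring (limma, adjusted p = 0.0095). Of the 57 regions at meiotic prophase genes, 1 (1.75%) was a member, 13351 bp from Syce3, a synaptonemal complex gene. Of the 42 at piRNA pathway genes, 3 (7.14%) were, at Tdrd6, Pld6 and 77230 bp from the start of Mov10l1. Tdrd6, a Tudor domain gene of germ cell granules, had 96 and 91 at its start and then 49 and 42. Between them it had 40 in 18 h replicate 2 and 39 in 48 h replicate 2.

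Of 149 regions of Wnt pathway genes, 9 (6.04%) were members, beside 4.43%, at Fzd5, Fzd10, Tcf7, Tcf7l2, Axin2, Dkk1, Lrp6 and Lgr5. The Fzd5 region, of a Wnt receptor gene, had 114 and 130 and then 95 and 80, and the start of Tcf7, a Wnt effector gene, had 70 and 168 and then 94 and 85. The Lgr5 region had 128 and 191, 34 in 18 h replicate 2, 39 in 48 h replicate 2, and then 64 and 26. It was lower at 120 h in both scalings (log2 change -1.94 as deposited and -0.997 after centring). Of 144 regions of TGF beta and BMP genes, 5 (3.47%) were members, among them the starts of Nog, Nodal and Acvr1 and a region 75461 bp downstream from the start of Bmp7. Of 52 regions of pluripotency genes, 4 (7.69%) were members, beside the same 4.43%, at Sall4, Lin28a, Klf5 and Utf1.

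Over all lists, 51 regions were members, of which 9 were lower and 0 were higher at 120 h by limma as deposited, beside the background of 35.9% and 1.02%. After centring 1 was lower and 12 were higher, beside 9.93% and 20%. Of all 2314 members, 454 were lower and 63 higher as deposited, and 32 and 682 after centring. Somatic cell markers held 2 members among 54 regions (3.70%), beside 1823 of the 41194 regions with an assigned gene. They lay upstream of Gata4 (94 and 92, then 51 and 60) and of Cldn11 (104 and 96, then 61 and 39), both genes of Sertoli cells. Cldn11 also had 51 in 18 h replicate 1 and 42 in 48 h replicate 1. A peak lay at the start of 6 of 6 Sertoli markers in both 0 h libraries and of 2 or 3 in the later ones. The same was true of 2 of 3 peritubular myoid markers in every library but 120 h replicate 2, where it was 1, with Acta2 in all 8. It was also true of 0 or 1 of 3 endothelial markers, of 0 of 5 Leydig markers in every library, and of 1 or 2 of 4 macrophage markers at 0 h and 0 later. Of 8 germ cell markers, 8 had such a peak at 0 h and 7 in each later library, where Nanos3 had none. The part of other cell types in the lost and regained calls was not tested.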

How the data were processed

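ATAC-seq libraries of 4 times with 2 replicates each were used, with groups taken from the sample labels. The authors aligned reads to mm10 (BWA 0.7.12), removed duplicates, reduced libraries to equal tags, and called peaks per library (MACS 2.1.0, p of 1e-07, no control). The deposited table gives each peak's position and its signal, that is tag coverage at the summit and its mean over the peak, with the genes assigned by the authors. Depth behind a peak is unknown, as only peak tables were analysed. Browser tracks and the authors' merged list were not used.

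Peaks were merged in Python 3.11.15 with pandas 2.3.3 and numpy 2.4.6. The test of log2 summit values used limma 3.58.1 (R 4.3.3), without a block, with Benjamini-Hochberg adjustment over 20285 regions. The prior variance dominated, and every region named here had the same SE of 0.42. On simulated data with 200 changed regions, the test found 18% of those with a log2 change of 1, 98% of those with 2 and 100% of those with 3. Far fewer regions changed there than the 36.9% called here, so these percentages do not carry over to the fit. With 2 mice per group, p-values rest on the spread between these libraries, pooled over all regions. They do not measure a region's own spread. Intervals for shares were from scipy 1.17.1.

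Members and lists were chosen with earlier results of these data known. Members were named by rule: the 8 with the highest value in their lowest library of 0 and 120 h, the next 5 without an 18 or 48 h peak, the 5 largest changes each way past the threshold, the next 5 at a gene start, the 2 highest per gene list, and the 5 genes with most members. Of these, 1 region without an 18 or 48 h peak is not reported here. Coordinates are 1-based, GRCm38. Features came from GENCODE vM21 basic.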

Additional observations from a re-analysis of the deposited data

How the results depend on the processing

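The number of members stayed within 1.5 times under 50% overlap, summit windows, peaks of at least 50 and removal of members with a neighbour (1952 to 2243 regions), though only 1062 of the 2314 were shared at a minimum of 50. It moved to 4909 with a peak in either library, 696 with no peak in any 18 or 48 h library and 526 with equal numbers of highest peaks. Leaving out each library gave 1378 to 8220 regions, the highest without 120 h replicate 2, and 1378 and 1474 without replicate 1 of 18 and of 48 h.

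Members lower and higher were 32 and 682 with median centring, 34 and 359 with quantile normalization, and 126 and 20 of 1064 with values of at least 50. Leaving out each library as deposited gave 23 to 941 lower and 11 to 154 higher, the highest count of higher members being without 120 h replicate 2 (154), and medians of -0.72 to -0.36. Centring with a library left out, added after seeing the data, gave 10, 25, 12 and 27 lower, 558, 400, 608 and 348 higher, and medians of 0.45, 0.35, 0.57 and 0.235, without replicates 1 and 2 of 0 h and 1 and 2 of 120 h in turn. The median reversed to 0.40 with centring and 0.29 with quantile normalization. Of the 454 lower members, 23 stayed lower without 0 h replicate 2, and 8 lower and 10 higher stayed called in every setting fitted on all regions other than these added ones.

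Replicates share only a number in the labels, and deviations of same-numbered libraries correlated by 0.23. With the replicate block 276 were lower and 40 higher, and with the block and centring 47 and 760, with a median of 0.40.

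The share at gene starts moved to 35.3% within 3000 bp, 19.7% without 18 or 48 h peaks, 30.2% with equal numbers of peaks and 26.03% without neighbours, and the share on CpG islands to 23.9% and 36.1% without 18 or 48 h peaks and with equal numbers. The summit distance did not change. The causes were not tested. Low peaks limit these results, since a peak under the calling limit has no height.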
